A study of Sus scrofa with 4 samples.

Results

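The enzymes described here build cholesterol from acetyl-CoA, and their transcripts were measured in expanded pig blastocysts grown with or without ethanol. They were chosen by the gene symbol that the array's annotation gives each probe. Of 8 listed symbols, 6 had a named probe, namely ACAT2, HMGCS1, FDPS, SQLE, CYP51 and CYP51A1. Since CYP51 and CYP51A1 name the same enzyme, the symbols stand for 5 enzymes, read by 10 probes, out of 7327 named genes with a usable probe on the array. No probe carried the symbol IDI1 or FDFT1, so these enzymes were not analysed here.

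Each of 4 two-colour arrays carried RNA from 1 pool of 10 blastocysts exposed to 0.2% ethanol and RNA from 1 pool of 10 unexposed blastocysts. All embryos are porcine, and the exposed ones spent 7 days from the zygote stage in PZM3 medium with ethanol, inside sealed glass vials. Ethanol RNA was in Cy5 on arrays 1 and 3 and in Cy3 on arrays 2 and 4. The pools hold only embryos that had reached the expanded blastocyst stage, and a pool mixes trophectoderm, inner cell mass and hypoblast. The sources used here do not give the strain, the parents or the time in culture of the unexposed embryos.

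Cholesterol is made in a long chain of reactions in the cytosol and the endoplasmic reticulum. Acetyl-CoA units are joined and reduced to mevalonate, mevalonate is turned into isoprenoid units, the isoprenoids are condensed to squalene, and squalene is closed into lanosterol and trimmed to cholesterol. When sterols in the membrane run low, the carrier SCAP brings the transcription factor SREBP-2 to the Golgi, where proteases release it, and it raises transcription of most genes of the chain. Farnesyl diphosphate, an intermediate, also feeds protein prenylation, ubiquinone and dolichol. An embryo that forms a blastocyst needs cholesterol for the membranes of its new cells.

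All 10 probes of the enzymes were above background in both channels of all 4 arrays. A probe anywhere on the array was kept for the test when 3 or more arrays showed it above background in the ethanol channel, or 3 or more in the control channel. Over the whole array, 70.4% to 73.5% of probes were above background in Cy3 and 45.3% to 57.3% in Cy5, and no array had more than 2 saturated spots. Markers of the trophectoderm were present, with 8 of 8 listed genes measured above background. Of the inner cell mass list, POU5F1 and DPPA5 were measured, while NANOG, SOX2 and KLF4 had no kept probe of that name. Of 11 listed genes of cumulus and granulosa cells, which surround the oocyte, 8 had a kept probe. Most were dim, with mean log2 intensities of 6.70 to 7.09 for FSHR, HSD3B1, INHA, PTX3, HAS2 and TNFAIP6. INHA and TNFAIP6 were above background on only 2 arrays in the ethanol channel and 3 in the control channel. The summed signal of the 8 genes was 1092 to 1257 normalized intensity units in ethanol channels and 1078 to 1484 in control channels. Much of that sum therefore lies near the floor and does not show how much RNA of these cells was present. Their fitted median ratio was 0.02 on the log2 scale. CYP19A1, CYP11A1 and FOXL2 of that list had no kept probe of that name.

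No enzyme passed the test. The highest ratio was that of the lanosterol demethylase CYP51, at 1.60-fold, followed by the thiolase ACAT2 at 1.21-fold, and HMG-CoA synthase (HMGCS1) had a log2 ratio of -0.02. The fitted log2 ratio of ethanol over control was above 0 for 4 of 5 enzymes and 8 of 10 probes, against 48.2% of all kept probes. Its median over the enzymes, each on its brightest probe, was 0.19, beside -0.0041 over all 25899 kept probes. That median is the value of FDPS, and it was 0.18 with each enzyme on the mean of its kept probes. With limma and Benjamini-Hochberg adjustment over all kept probes, 0 of 10 member probes and 0% of all kept probes passed an adjusted p of 0.05. The lowest adjusted p on the array was 0.511. At an unadjusted p under 0.05 stood 2 of the 10 probes, CYP51 and CYP51A1, against 7.27% of all kept probes (1883 probes). The pools are the replicates, and the sources used here do not say that they came from separate cultures. The p-values thus speak only of these 4 pairs of pools. They rest on the spread between the pairs after limma drew each probe's variance toward that of all kept probes. SEs and intervals use the same moderated variance, so they are not the spread of that probe alone.

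The arrays differed more than the fit shows. The median log2 ratio of the 5 enzymes was 0.85 on array 1, -0.12 on array 2, 0.10 on array 3 and 0.22 on array 4, before the dye term. The array 1 median is the value of the brightest FDPS probe. On that array the other 4 FDPS probes held -0.39, 0.08, -0.02 and 0.27, so this median depends on the probe taken. The median over all kept probes lay between -0.01 and 0.01 on every array. Before the dye term, array 1 thus had the highest median and array 2 the lowest. On the same values 4 of 5 enzymes were above 0 on arrays 1, 3 and 4 but 1 of 5 on array 2. Of all kept probes, 49.8%, 49.9%, 51.2% and 47.4% were above 0 on arrays 1 to 4. Array 1 gave the highest ratio of the 4 arrays for 3 of the 5 enzymes and 5 of the 10 probes, against 26.3% of all kept probes. Ratios of 1 array still contain the dye's own effect on the probe, so arrays 1 and 3, or 2 and 4, are the ones that compare directly. With each probe's dye coefficient removed, arrays 2 and 3 held 0.24 and -0.06 for ACAT2 and 0.09 and -0.25 for FDPS. They held 0.03 and -0.03 for SQLE, 0.22 and 0.24 for CYP51 and -0.45 and 0.13 for HMGCS1. On these values array 2 was the lowest array for CYP51 and HMGCS1, and array 3 for ACAT2, FDPS and SQLE. The dye coefficients were fitted to the same 4 arrays, and the cause of the low place of array 2 was not tested.

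**Figure D1:**
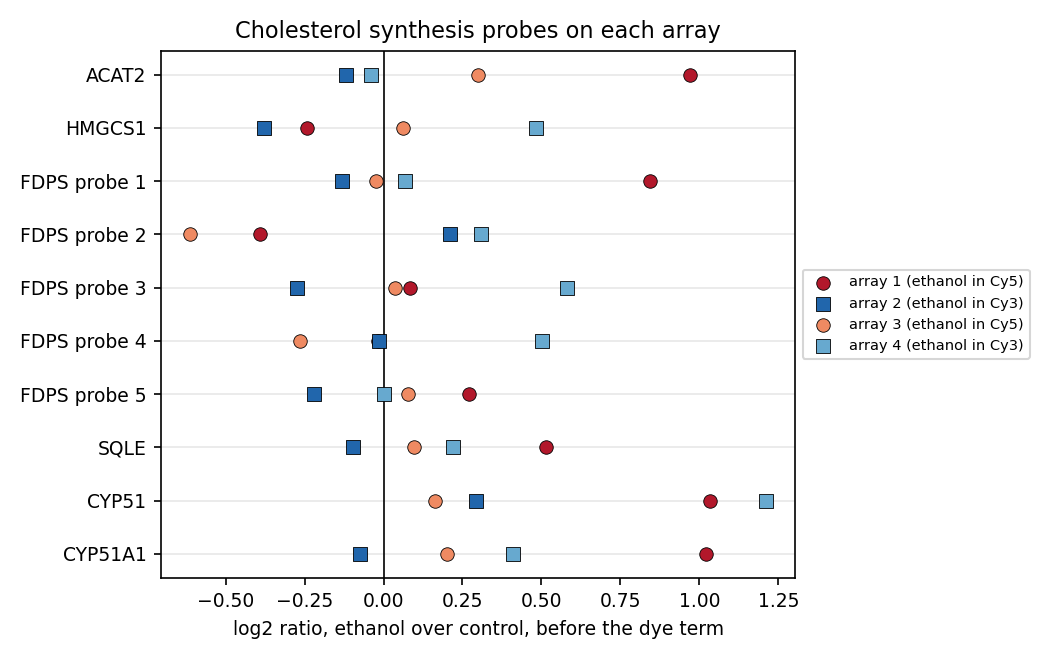
Log2 ratio of ethanol over control before the dye term (x axis) for the 10 probes (y axis), 1 point per array, circles for arrays with ethanol in Cy5 and squares for ethanol in Cy3. CYP51 is the only probe of the 10 with all 4 points above 0, from 0.16 to 1.21, and array 1 lies far right for ACAT2, FDPS probe 1 and CYP51A1.

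The first enzyme of the chain, ACAT2, is the cytosolic thiolase that joins 2 acetyl-CoA molecules, and the symbol is not the cholesterol acyltransferase sometimes called by that name. The log2 ratio of its probe EMPV1_22733 was 0.97 on array 1, -0.12 on array 2, 0.30 on array 3 and -0.04 on array 4. Both arrays with ethanol in Cy5 were above 0 and both with ethanol in Cy3 slightly below. The probe's dye coefficient was 0.36, beside a median size of 0.13 over all kept probes. With that dye term the fitted ratio was 0.28 (SE 0.12, n = 4 arrays, 95% interval -0.02 to 0.57), a 1.21-fold difference, with a limma adjusted p of 0.709. In normalized log2 intensity the ethanol channels held 13.47, 12.70, 12.97 and 12.10 on arrays 1 to 4, and the control channels 12.51, 12.82, 12.67 and 12.14. The groups overlapped, and only array 1 showed a wide gap between its own channels.

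HMGCS1 makes HMG-CoA, the precursor of mevalonate. The log2 ratio of its probe EMPV1_35113 was -0.24, -0.38, 0.06 and 0.48 on arrays 1 to 4, so that arrays 1 and 2 were below 0 and array 4 well above. The fitted ratio was -0.02 (SE 0.15, 95% interval -0.39 to 0.35), with a limma adjusted p of 0.999. HMGCS1 was the enzyme whose array pattern went against the others, being below 0 on array 1, where the other 4 were above. In channel levels the ethanol pools ranged from 8.57 to 9.03 and the control pools from 8.54 to 8.95, which is nearly the same span. On the fold scale the interval runs from 0.762 to 1.28, so the data do not show that ethanol left HMGCS1 unaltered. The sign of the fitted value also turned to 0.01 with scale normalization between arrays.

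FDPS, farnesyl diphosphate synthase, condenses isoprenoid units into the farnesyl unit from which squalene, prenyl groups, ubiquinone and dolichol are made. It had 5 probes, numbered here from the brightest to the dimmest. Probe 1 (EMPV1_19395) had log2 ratios of 0.85, -0.13, -0.02 and 0.07 on arrays 1 to 4. Array 1 alone stood away from 0, and the fitted ratio was 0.19 (SE 0.15, 95% interval -0.18 to 0.56), with a limma adjusted p of 0.911.

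The other 4 FDPS probes did not share the array 1 value. Probe 2 (EMPV1_42004) had -0.39, 0.21, -0.61 and 0.31 on arrays 1 to 4, below 0 wherever ethanol was in Cy5 and above 0 wherever it was in Cy3. Its dye coefficient was -0.38 and its fitted ratio -0.12 (SE 0.08). Probe 3 (EMPV1_02475), which carries the same transcript accession as probe 2, had 0.08, -0.28, 0.04 and 0.58, and a fitted ratio of 0.11 (SE 0.14). Array 4 stood out there and in probe 4 (EMPV1_30984), which had -0.02, -0.01, -0.27 and 0.50 and a fitted ratio of 0.05 (SE 0.11). Probe 5 (EMPV1_17536), the dimmest, had 0.27, -0.22, 0.08 and 0.00 and a fitted ratio of 0.03 (SE 0.08). Over the 5 probes the mean fitted ratio was 0.05, and their limma adjusted p lay between 0.850 and 0.991. Probes of 1 gene share its RNA and are not replicates. That they differ in which array stands out means that the value of FDPS depends on the probe taken.

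SQLE is squalene epoxidase, which oxidizes squalene before ring closure, a step that can limit the rate of the later chain. The log2 ratio of its probe EMPV1_01054 was 0.51 on array 1, -0.10 on array 2, 0.10 on array 3 and 0.22 on array 4. SQLE is itself the median enzyme on arrays 3 and 4. It lay nearest to the mean of the 5 enzymes, which includes it, with a root mean square difference of 0.102 over the 4 arrays. The next nearest was FDPS with 0.209, and CYP51 (0.498) and HMGCS1 (0.461) were the farthest. The fitted ratio of SQLE was 0.18 (SE 0.10, 95% interval -0.07 to 0.44), with a limma adjusted p of 0.807. In channel levels the ethanol pools held 12.29, 11.82, 11.98 and 12.46 and the control pools 11.77, 11.91, 11.88 and 12.24 on arrays 1 to 4. The groups overlapped, since the control level of array 4 exceeded the ethanol levels of arrays 2 and 3.

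CYP51 is lanosterol 14-alpha demethylase, the cytochrome P450 that starts the trimming of lanosterol. The probe named CYP51 (EMPV1_33234) was above 0 on every array, with log2 ratios of 1.03, 0.29, 0.16 and 1.21 on arrays 1 to 4. It was the only probe of the 10 with this pattern, which 4.35% of all kept probes had. Arrays 1 and 4 held large ratios, and arrays 2 and 3 small ones, so each dye orientation had 1 of each kind. The fitted ratio was 0.68 (SE 0.20, 95% interval 0.18 to 1.17), a 1.60-fold difference with an interval of 1.14 to 2.24. The limma unadjusted p was 0.0156 and the adjusted p 0.570, and its p ranked 706 among the 25899 kept probes. Its dye coefficient was -0.08, which is small beside the ratio.

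In normalized log2 intensity the CYP51 ethanol channels held 13.54, 12.94, 12.98 and 13.91 on arrays 1 to 4, and the control channels 12.51, 12.65, 12.81 and 12.70. Every ethanol pool was above every control pool, a pattern in this direction that 0.498% of all kept probes had and that none of the other 9 member probes shared. The ethanol pools varied more (SD 0.468, n = 4) than the control pools (SD 0.128, n = 4), with arrays 1 and 4 high and arrays 2 and 3 only slightly above the highest control level. In bulk RNA of whole embryos, more transcript per cell and more cells of a type that carries it cannot be told apart.

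**Figure D2:**
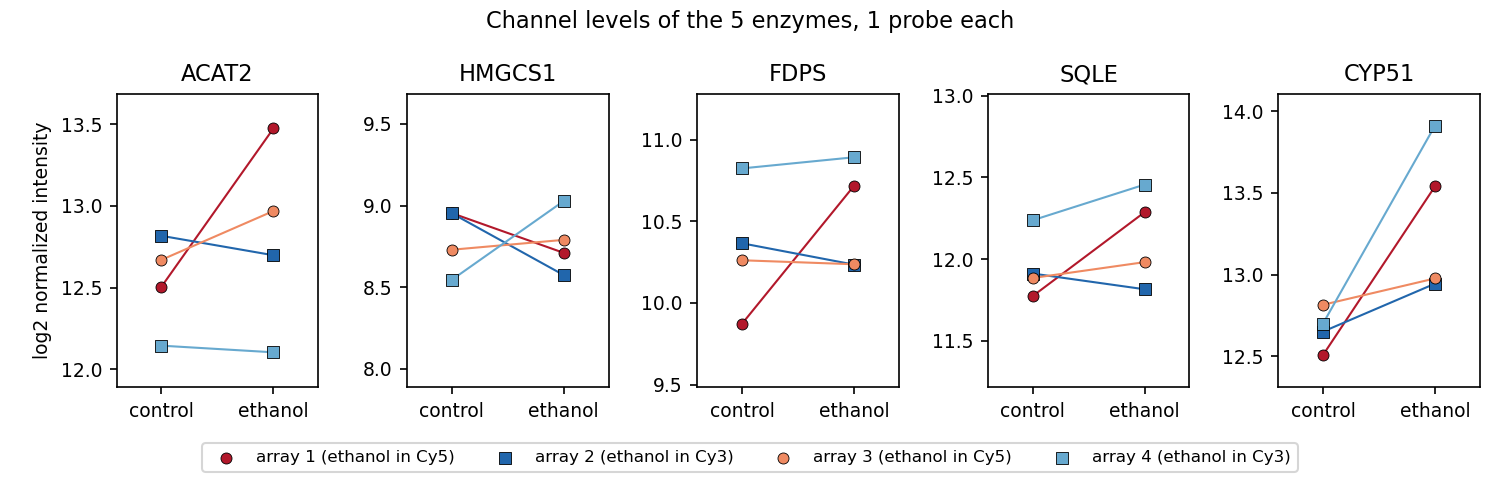
Normalized log2 intensity (y axis, each panel spanning the same range around its own values) in the control and ethanol channel of each array, joined by a line per array, for the brightest probe of each enzyme. All 4 lines go up for CYP51, and its ethanol points lie above all of its control points, while the groups overlap in the other 4 panels.

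The second probe of the enzyme, named CYP51A1 (EMPV1_00041), had log2 ratios of 1.02, -0.07, 0.20 and 0.41 on arrays 1 to 4. It was above 0 on arrays 1, 3 and 4 and just below on array 2. The fitted ratio was 0.39 (SE 0.16, 95% interval 0.0038 to 0.77), a 1.31-fold difference, with an unadjusted p of 0.0484 and an adjusted p of 0.685 in limma. The CYP51 ratio minus the CYP51A1 ratio was 0.01 on array 1, 0.37 on array 2, -0.04 on array 3 and 0.80 on array 4. The probes thus gave the same value where ethanol was in Cy5 and the CYP51 probe gave more where it was in Cy3. The dye coefficient of CYP51A1 was 0.22. Its channel levels overlapped, with ethanol levels of 10.29, 9.30, 9.75 and 8.74 and control levels of 9.27, 9.38, 9.54 and 8.33 on arrays 1 to 4. The mean of the fitted ratios of both probes was 0.53.

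The pair of arrays with the same dye orientation removes the dye effect from a comparison between pairs of pools. Ratios on array 1 were above those on array 3 by over 0.4 on the log2 scale for 4 of 5 enzymes. Counted by probe this was 5 of 10, against 9.53% of all kept probes. FDPS counts here only through probe 1, since its probes 2 to 5 differed by 0.22, 0.05, 0.25 and 0.19. The differences were 0.87 for CYP51, 0.87 for FDPS probe 1, 0.67 for ACAT2, 0.42 for SQLE and -0.30 for HMGCS1, and 0.82 for the CYP51A1 probe. The median of the 5 enzymes, each on its brightest probe, was 0.67, where all kept probes had a median of 0.01 and an SD of 0.333. Each such value is a difference between the ethanol over control ratios of 2 single arrays.

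Array 4 stood above array 2 for all 5 enzymes and all 10 probes, where all kept probes had a median difference of -0.01. Of these 10 probes 5 read FDPS and 2 the lanosterol demethylase, so they are not 10 separate values. Both comparisons of arrays of 1 dye orientation were chosen with earlier results of these data known, so the shared direction is not a test. Array 4 exceeded array 2 by over 0.4 for 2 of 5 enzymes and 5 of 10 probes, against 7.85% of all kept probes. The difference was 0.92 for CYP51, 0.86 for HMGCS1, 0.31 for SQLE, 0.20 for FDPS probe 1 and 0.08 for ACAT2. The median of the 5 enzymes was 0.31, and the SD over all kept probes was 0.330. CYP51 was far from 0 in both contrasts, FDPS probe 1 and ACAT2 chiefly in the first and HMGCS1 in the second. Which of the pools on an array carries the difference is not settled by ratios.

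**Figure D3:**
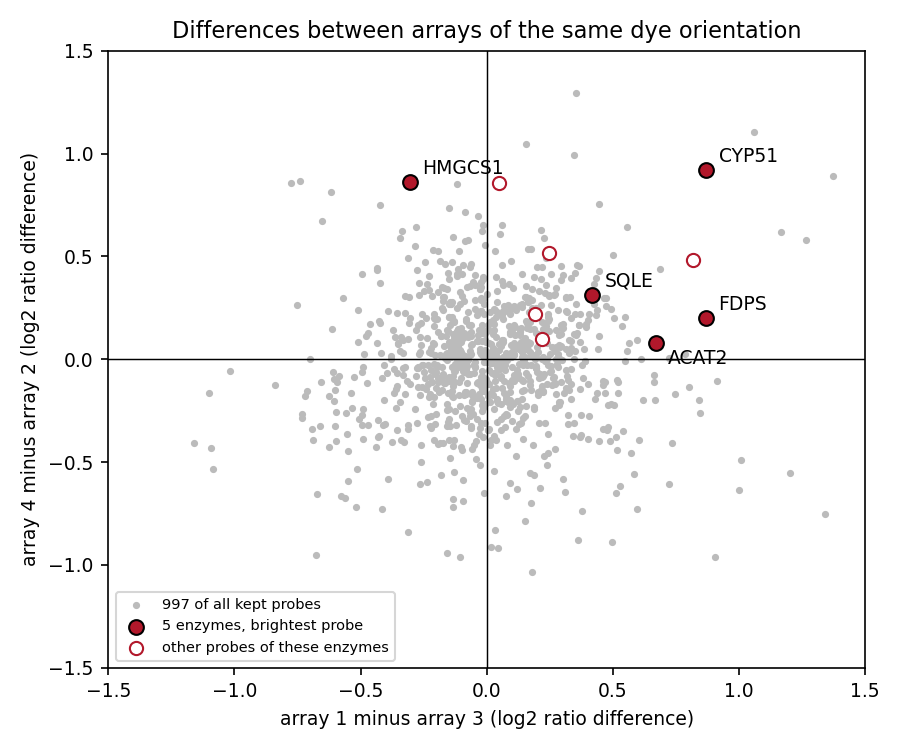
Difference in log2 ratio between array 1 and array 3 (x axis) and between array 4 and array 2 (y axis), for 997 evenly drawn kept probes (grey, 7 of them outside the axes), the brightest probe of each enzyme (filled) and the other member probes (open). CYP51 lies at 0.87 and 0.92, FDPS and ACAT2 lie to the right near the horizontal line, and HMGCS1 lies high on the left at -0.30 and 0.86.

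Dye effects cancel in the mean of 1 array of each orientation, and 4 such pairs can be formed. For CYP51 the pair means were 0.66 for arrays 1 and 2, 1.12 for arrays 1 and 4, 0.23 for arrays 3 and 2, and 0.69 for arrays 3 and 4. All 4 lay above 0, as they must when the ratio is above 0 on every array, and the pair without arrays 1 and 4 was the lowest. For ACAT2 the pair means ran from 0.09 to 0.46, for SQLE from 0.00 to 0.37, for FDPS probe 1 from -0.08 to 0.46 and for HMGCS1 from -0.31 to 0.27. Every enzyme except HMGCS1 was highest in the pair of arrays 1 and 4 and lowest in the pair of arrays 3 and 2. That order follows from the differences between arrays given above and adds nothing to them. These pairs share arrays, so they are not 4 independent values.

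The fitted values depended on which arrays were in the fit. Without array 1 the fitted ratio was 0.46 for CYP51, 0.18 for CYP51A1, 0.11 for ACAT2, 0.08 for SQLE and -0.03 for FDPS probe 1. Without array 4 it was 0.45 for CYP51, 0.27 for CYP51A1, 0.26 for ACAT2, 0.10 for SQLE and 0.14 for FDPS probe 1. Without array 3 the same probes gave 0.89, 0.59, 0.44, 0.29 and 0.41, and without array 2 they gave 0.90, 0.51, 0.30, 0.26 and 0.24. Leaving out arrays 1, 2, 3 and 4 in turn gave a median of the enzymes of 0.08, 0.26, 0.41 and 0.14. In the same order, the member probes at an unadjusted p under 0.05 in limma numbered 0, 3, 5 and 0. No array left out gave a probe with an adjusted p under 0.05 anywhere on the array. HMGCS1 ranged from -0.24 without array 4 to 0.20 without array 2.

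**Figure D4:**
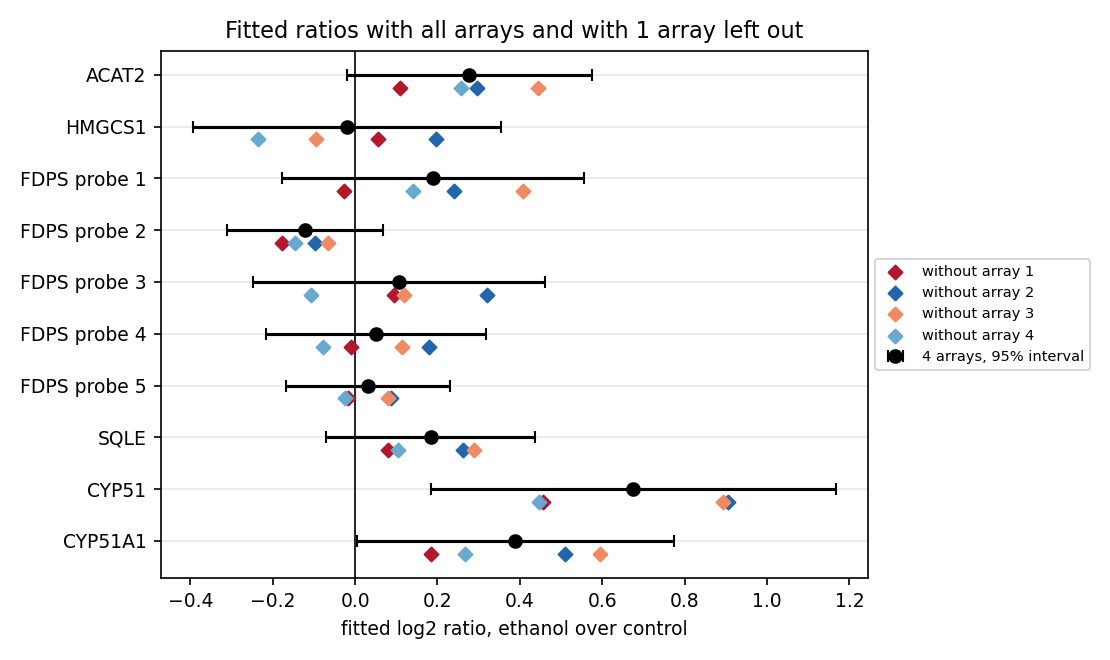
Fitted log2 ratio of ethanol over control (x axis) of the 10 probes, with 4 arrays as a black point and its 95% interval, and with 1 array left out as coloured diamonds. The CYP51 diamonds lie between 0.45 and 0.90, all above 0 as its ratios on the 4 arrays require, and those of HMGCS1 lie on both sides of 0.

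The authors' deposited series table gave nearly the same ratios for the enzymes once its Cy5 over Cy3 values were turned to ethanol over control. In the authors' deposited table CYP51 stood at 0.99, 0.22, 0.18 and 1.27 on arrays 1 to 4, and ACAT2 at 0.93, -0.18, 0.32 and -0.06. Array 1 held the high ACAT2 value and arrays 1 and 4 the high CYP51 values in that table too. A limma fit to the authors' values gave 0.66 for CYP51, 0.25 for ACAT2 and 0.18 for the median of the enzymes.

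The other measured enzymes of the chain had fitted ratios from -0.03 to 0.18. Of 19 listed symbols for other synthesis steps, 6 genes had a kept probe. The fitted ratio was 0.06 for MVK, the mevalonate kinase, and -0.03 for PMVK, the kinase after it. For the later steps it was 0.18 for the sterol reductase TM7SF2, 0.13 for SC4MOL, the C-4 methyl oxidase, 0.01 for the dehydrogenase NSDHL and 0.12 for the ketoreductase HSD17B7. So 5 of 6 were above 0, with a median of 0.09, and 0 of 6 passed the limma test at either the adjusted or the unadjusted threshold of 0.05. The ratio on array 1 exceeded that on array 3 by over 0.4 in 4 of these 6 genes, with a median difference of 0.44. TM7SF2 stood at 0.65, 0.40, -0.40 and 0.05 on arrays 1 to 4 and PMVK at 0.47, -0.67, 0.03 and 0.04. On arrays 1 to 4, SC4MOL held 0.09, 0.21, -0.29 and 0.51, and its high array before the dye term was array 4. With its dye coefficient of -0.23 removed it held 0.32, -0.02, -0.06 and 0.28.

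Genes of sterol sensing lay on both sides of 0. INSIG1, which holds SCAP in the endoplasmic reticulum and is itself a sterol-responsive gene, had log2 ratios of 0.23, -0.01, -0.20 and -0.36 on arrays 1 to 4. Its fitted ratio was -0.08 (SE 0.11), with a limma adjusted p of 0.974, and the other 2 kept probes of INSIG1 gave 0.07 and -0.07. On the brightest INSIG1 probe array 1 was the highest and array 4 the lowest before the dye term, unlike CYP51. The other 2 kept probes held 0.03, 0.38, 0.31 and -0.46, and -0.31, 0.19, -0.40 and 0.26, on arrays 1 to 4. The array pattern of INSIG1 thus depended on the probe. Of the Golgi proteases that release SREBPs, MBTPS2 had a fitted ratio of 0.21 (SE 0.07) and MBTPS1 -0.17 (SE 0.07), with limma adjusted p of 0.635 and 0.689. A second MBTPS1 probe gave 0.01. Of the 5 sensing genes with a kept probe, 3 were above 0 and 2 below, 1 had an unadjusted p under 0.05, and 0 passed the adjusted threshold. SREBF2 and SCAP had no probe of those symbols.

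Uptake and release of cholesterol showed no shared direction. Of 9 genes with a kept probe, including the receptors LRP8 and SCARB1 and the lysosomal genes NPC1, NPC2 and LIPA, 4 were above 0 and 5 below. Their median was -0.01 and their range -0.17 to 0.18, and 0 had an unadjusted p under 0.05 in limma. Across synthesis, sensing and uptake, 12 of 20 genes were above 0 with a median of 0.06, and 0 passed the adjusted threshold. Of 7 genes of esterification, efflux and oxysterol response, 3 were above 0, with a median of -0.02. The lowest of these was NR1H2, the oxysterol receptor LXR-beta, at -0.24 (SE 0.11, adjusted p 0.718 in limma), while its second probe gave -0.02.

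The isoprenoid branches that share farnesyl diphosphate with FDPS had a median of 0.01 over 9 genes, 5 of them above 0. PDSS1, a subunit of the synthase that builds the ubiquinone tail, had log2 ratios of 0.45, 0.17, 0.59 and -0.11 on arrays 1 to 4. Arrays 1 to 3 were above 0 and array 4 below, and the fitted ratio was 0.28 (SE 0.08) with a limma adjusted p of 0.570. Of the arrays with ethanol in Cy5, array 3 was higher than array 1.

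Fatty acid synthesis, which the related factor SREBP-1 drives, had a median of 0.23 over 7 genes, the highest of the 6 neighbouring lists, with 5 above 0. FASN, the fatty acid synthase, had log2 ratios of 0.43, -0.11, 0.47 and 0.20 on arrays 1 to 4 and a fitted ratio of 0.25 (SE 0.08, limma adjusted p 0.618). FADS2, a desaturase, had 0.36, -0.10, 0.42 and 0.30 and a fitted ratio of 0.24 (SE 0.09, limma adjusted p 0.652). In both genes arrays 1 and 3 were alike, unlike CYP51 and ACAT2. ACSS2, which makes acetyl-CoA from acetate, was chosen for naming after its values were seen. It had 1.09, -0.11, 0.12 and 0.37 on arrays 1 to 4 and a fitted ratio of 0.37 (SE 0.17, limma adjusted p 0.731). Of the 7 genes, 2 had an unadjusted p under 0.05 and 0 passed the adjusted threshold. Differences between these lists were not tested.

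**Figure D5:**
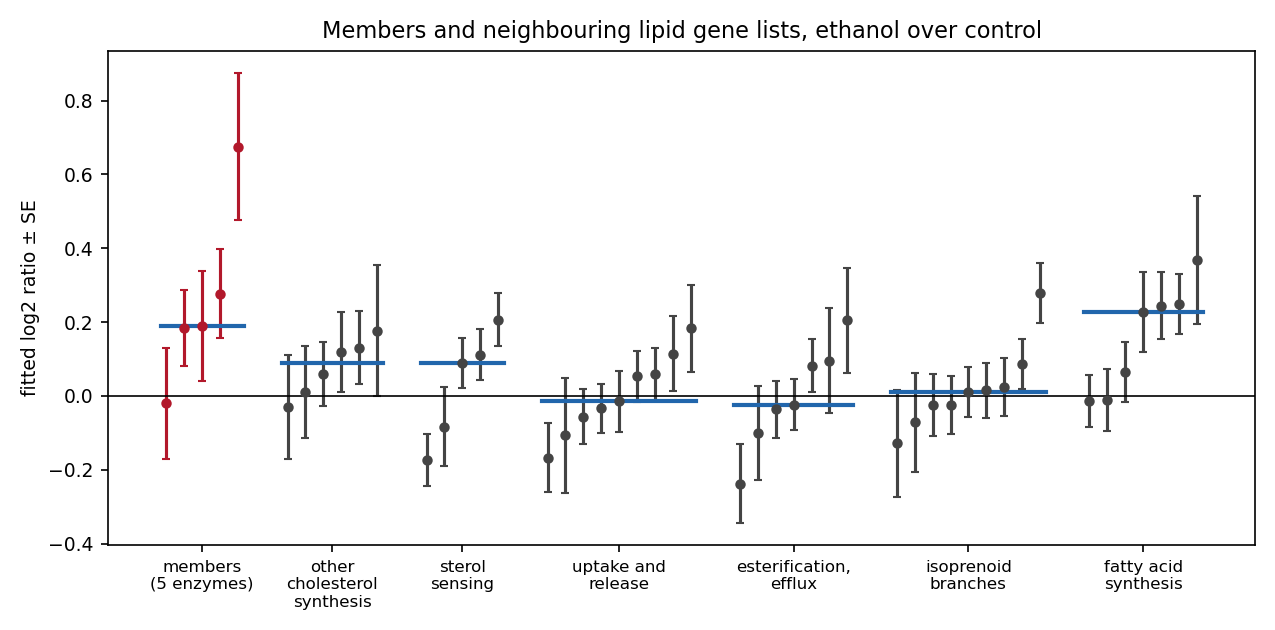
Fitted log2 ratio of ethanol over control with its SE (y axis), 1 point per gene on its brightest kept probe, for the 5 enzymes (red) and 6 neighbouring gene lists (grey), with each list's median as a blue bar. CYP51 is the highest point at 0.68, and the medians run from -0.02 for esterification and efflux to 0.23 for fatty acid synthesis.

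Genes whose 4 ratios lay closest to the enzymes' mean pattern of 0.62, -0.09, 0.12 and 0.39 were sought among 7321 other named genes. The closest was GCH1, GTP cyclohydrolase, the first enzyme of tetrahydrobiopterin synthesis, at a root mean square difference of 0.079 over the 4 arrays. It had 0.58, -0.08, 0.06 and 0.25. DPH3 followed at 0.0797, then ABHD5, an activator of triglyceride lipase, at 0.0967, ITGA2B, an integrin subunit, at 0.100, and RSU1 at 0.110. The median difference over all genes compared was 0.442. Of the enzymes themselves, CYP51 (0.498) and HMGCS1 (0.461) lay farther from the mean pattern than that, so the pattern is not one that all the enzymes share. Likeness over 4 arrays is a description, and these genes were picked for it.

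Markers of embryo cell types were set beside the enzymes for the same arrays. The trophectoderm genes had a median fitted ratio of -0.11, with 3 of 8 above 0 and 2 at an unadjusted p under 0.05 in limma, both lower, and per array their median was 0.17, -0.29, -0.07 and -0.24. Their summed normalized intensity ranged from 74210 to 182282 in ethanol channels and from 91912 to 166794 in control channels. The brightest of these genes, KRT8 and KRT18, had mean log2 intensities of 15.4 and 15.6 and dye coefficients of 1.02 and 1.22. These sums therefore contain the dye effect, as do the medians per array, and do not show how much trophectoderm RNA each pool held. The 4 hypoblast genes measured had a median of 0.16, with 3 above 0, and the inner cell mass genes had a median of -0.17, with POU5F1 at -0.06 and DPPA5 at -0.27. Among the cumulus and granulosa genes, STAR, which carries cholesterol into mitochondria for steroid synthesis, had -1.22, -0.28, 0.22 and 0.33 on arrays 1 to 4. STAR was chosen for naming after its values were seen, and the median of the 8 genes was 0.07, 0.08, 0.07 and 0.01 on the same arrays. The part of the cell type makeup in the enzymes' values was not tested.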

How the data were processed

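Pool RNA went through 2 rounds of T7 amplification before a platinum-linked chemistry attached Cy3 or Cy5, per the labels' protocols. The deposited scanner files hold, per the file headers, the raw intensity of each spot and of its local background in both dyes. The authors also deposited a series table of log2 ratios, and the sources used here do not say how these were normalized. Set against background-subtracted, loess-normalized log2 Cy5 over Cy3 ratios, its columns correlated at 0.990, 0.997, 0.994 and 0.985 across probes, with slopes of 0.978, 0.992, 0.930 and 1.02 and column medians of -0.0138, -9.35e-05, 0.00378 and 0.00108 for arrays 1 to 4. Its scale is therefore log2 and its direction Cy5 over Cy3, and its centring method is unknown. A further table with 4 columns whose names match no label was not used. The sources used here do not give scanner, software, slide or scan date, and batches were therefore not tested.

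Median pixel signals were processed in R 4.3.3 with limma 3.58.1, by normexp background correction with an offset of 50 and loess within each array, with weight 0 for 1426 control and other non-probe spots. A probe was above background in a channel when its raw signal exceeded the 95th percentile of 153 negative-control spots, and 25899 of 43794 probes were kept, those that met this on 3 or more arrays in the ethanol channel or on 3 or more in the control channel. Per probe, an ethanol coefficient (signed by the labelling of each array) and a dye coefficient were fitted, leaving 2 residual degrees of freedom. The empirical Bayes step of limma then moved each probe's variance toward a value estimated from all kept probes. SEs, intervals and p-values use that moderated variance and its larger degrees of freedom. The fit was run on all kept probes with Benjamini-Hochberg adjustment and a threshold of 0.05. Channel levels are values after loess and quantile normalization of average intensity between arrays. Only the limma fit was tested on simulated data, namely log2 ratios of the kept probes, so background correction, loess and the filter were not.

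Gene names come from the array's annotation, which gives 1 symbol for 18121 probes and none for 25673. Each gene is represented by its brightest kept probe, and all member probes are given. The members, the gene lists, the comparison of arrays of 1 dye orientation and the rule for named genes were chosen with earlier results of these data known. Outside the members that rule names SREBF2, SCAP and INSIG1 where measured, list genes past the adjusted threshold, the 6 genes of smallest p from the 6 lipid gene lists (not the cell type markers) and the 5 genes most like the members. Some items of the lists are not reported here. A planned search for promoter motifs was not run, since no sequences were at hand. Alternatives covered background correction, normalization, the filter, the dye term, the variance model, pixel summary, the authors' values, the probe taken and leaving out each array.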

Additional observations from a re-analysis of the deposited data

How the results depend on the processing

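The adjusted count over all probes stayed at 0 under every alternative run, and the median of the 5 enzymes stayed above 0, from 0.08 to 0.41. The unadjusted count over all probes was 1883, 879 without the dye term, 2704 with no filter on dim probes, 1380 with the filter requiring all arrays and both channels, and 1297 to 2221 with 1 array left out. The count of member probes at an unadjusted p under 0.05 in limma was 2, and it was 1 with no background correction, with the filter requiring all arrays and both channels, without the dye term and with mean pixel signals, 3 with median centring in place of loess, and 0 to 5 with 1 array left out. The sign of some probes near 0 turned. HMGCS1 (-0.02) stood at 0.0086 with scale normalization, and with 1 array left out it ranged from -0.24 without array 4 to 0.20 without array 2, with 0.056 without array 1. With 1 array left out, FDPS probe 1 ranged from -0.028 without array 1 to 0.41 without array 3, and probe 3 from -0.11 without array 4 to 0.32 without array 2. Probe 4 ranged from -0.078 without array 4 to 0.18 without array 2, with -0.011 without array 1. Probe 5 ranged from -0.024 without array 4 to 0.087, with -0.017 without array 1. INSIG1 ranged from -0.19 without array 1 to 0.024 without array 3, with 0.0053 without array 4. Fits with 1 array left out had fewer arrays, and otherwise the cause was not tested. The other 313 recomputed values kept their direction and side of the adjusted threshold or, for counts, stayed within 1.5 times. The unadjusted limma p of some of these probes crossed 0.05. For CYP51A1 it was 0.0484 in the main fit and 0.0635 without the dye term. For ACAT2 it was 0.0627 in the main fit and 0.0414 with median centring in place of loess. Each array pairs an ethanol pool with a control pool, so the fit to array ratios is itself paired. The number of arrays limits precision, and brighter probes such as CYP51 lie farther above background than FDPS probe 5.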
